A study of Mus musculus with 35 samples.

Results

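The genes described here encode potassium channels and their auxiliary subunits. They were taken as all genes of the deposited table whose symbol starts with Kcn, 94 of 21203 genes. Of these, 84 passed the filter on low counts and were tested, among 17131 tested genes in all. The 10 that did not pass were Kcna7, Kcna10, Kcne1, Kcne3, Kcnk7, Kcnk15, Kcnk16, Kcnk18, Kcnmb3 and Kcnv2, none of which had more than 12 counts in any mouse. By structure and gating, the 84 tested genes comprise 37 voltage-gated channel subunits, 8 calcium- or sodium-activated channels, 15 inward rectifiers, 10 two-pore channels and 14 auxiliary subunits.

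Potassium channels let potassium leave the cell down its gradient and thereby set the resting potential, repolarize the action potential and shape firing. In neurons, voltage-gated subunits form axonal, dendritic and fast-spiking currents, the M current and the A-type current, while inward rectifiers and two-pore channels carry resting and receptor-coupled currents. In glia and leukocytes a smaller set takes over: Kcnj10 carries the potassium conductance of astrocytes, Kcnk13 that of resting microglia, and Kcnn4, Kcna3 and Kcnk6 sustain the driving force for calcium entry or the potassium efflux of activated macrophages, microglia and T cells.

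RNA was sequenced from tissue around the injection site of 35 male C57BL/6NCrl mice, 1 library per mouse, that were 8 to 9 weeks old at the start, and the table holds 34 of them. Sham mice (n = 5, 2 collected at 1 week and 3 at 3 weeks) were neither injured nor treated according to the labels, and all other mice had a closed head injury followed by an injection into the left hippocampus. These other mice are called injured below, but injury and injection cannot be told apart in any comparison with Sham. The injection held PBS, mesenchymal stromal cells (MSCs) or MSCs transfected with interleukin-4 mRNA (IL-4 MSCs), and tissue was taken 2 days later, at 1 week post injury (wpi), or 16 days later, at 3 wpi. Treated groups held 5 mice each, and the PBS group at 3 wpi held 4, 1 mouse having been left out by the authors after sequencing. The MSCs were primary cells bought from a vendor and derived from C57BL/6N mice, so transcripts of donor cells cannot be told apart from those of the host. The labels name the tissue left cortex, cut 2 mm wide, but markers of hippocampus, thalamus and striatum were measured in all groups beside those of cortex. All mice of a treated group carry the same first number in their names, whose meaning the labels do not give, so anything that goes with it cannot be told apart from the group.

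Libraries held 29838423 to 41554322 estimated counts. Values below are counts scaled to library size (CPM), and TPM, the transcript abundance per length, only where it is named. TMM factors of 0.968 to 1.04 entered the tests and the marker scores but not the printed CPM. Whether mice overlapped in single genes was judged on the printed CPM. The factors were 0.968 to 0.994 in Sham and 1.02 to 1.04 in IL-4 MSCs at 1 wpi. Decreases between these groups therefore look smaller in CPM than in the tested fold changes. A level of 3 counts, below which a gene was not held to be detectable, equals 0.0722 to 0.101 CPM, and this covers counting error only. A gene is called changed where edgeR's quasi-likelihood test, two-sided, gave a Benjamini-Hochberg adjusted p under 0.05 over the 17131 genes, and fold changes are log2 with their standard error (SE). Because each library is a mixture of cells, fewer cells of a type and less RNA per cell cannot be told apart.

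The promoters of 3 of the 4 genes that rose in IL-4 MSCs at 1 wpi, and of Kcng3, which fell there, are shown to let the reader compare their start regions. The fourth riser was Kcnk6. Each sequence is RefSeq's GRCm38.p6, from 250 bases before to 50 bases after the start on the gene's strand. Capitals mark the letters of the GC box GGGCGG or the TATA box TATAAA, read on either strand.
Kcnn4 (chr7:24370013-24370312, plus strand): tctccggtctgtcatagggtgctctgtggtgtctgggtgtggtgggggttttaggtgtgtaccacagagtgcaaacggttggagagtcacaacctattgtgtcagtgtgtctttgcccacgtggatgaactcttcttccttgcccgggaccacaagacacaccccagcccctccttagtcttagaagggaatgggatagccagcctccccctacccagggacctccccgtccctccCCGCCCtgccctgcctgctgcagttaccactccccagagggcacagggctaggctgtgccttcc
Kcne1l (chrX:142306149-142306448, minus strand): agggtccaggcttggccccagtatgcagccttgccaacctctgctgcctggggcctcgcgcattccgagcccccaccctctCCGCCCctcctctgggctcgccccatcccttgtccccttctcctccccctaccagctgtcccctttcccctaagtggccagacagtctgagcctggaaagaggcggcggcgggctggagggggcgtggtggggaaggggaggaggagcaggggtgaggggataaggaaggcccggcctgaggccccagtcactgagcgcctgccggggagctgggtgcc
Kcnj15 (chr16:95257308-95257607, plus strand): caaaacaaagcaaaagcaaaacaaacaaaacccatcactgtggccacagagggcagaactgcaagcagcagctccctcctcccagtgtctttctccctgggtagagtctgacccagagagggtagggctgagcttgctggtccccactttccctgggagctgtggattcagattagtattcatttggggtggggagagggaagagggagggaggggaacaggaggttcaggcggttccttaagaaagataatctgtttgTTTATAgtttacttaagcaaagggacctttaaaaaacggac
Kcng3 (chr17:83631846-83632145, minus strand): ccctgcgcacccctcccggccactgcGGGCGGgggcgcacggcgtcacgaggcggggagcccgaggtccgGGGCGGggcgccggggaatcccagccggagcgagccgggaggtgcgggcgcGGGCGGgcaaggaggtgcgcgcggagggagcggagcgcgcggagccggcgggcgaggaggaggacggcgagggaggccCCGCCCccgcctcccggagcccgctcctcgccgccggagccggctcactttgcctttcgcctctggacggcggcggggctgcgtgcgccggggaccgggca
Kcng3 had 49 CG dinucleotides and 4 GC boxes in 300 bases, against 6, 12 and 2 CG dinucleotides and 1, 1 and 0 GC boxes in Kcnn4, Kcne1l and Kcnj15, and Kcnj15 alone of these 4 held the TATA letters. Entries were found for 69 of the 94 genes, with 94 start regions between them. Of these start regions 47.9% held a GC box, 5.32% a TATA box and 6.38% the letters TTC and GAA with 4 bases between them, a spacing bound by STAT6, on either strand. Among all 32851 start regions of the table the shares were 35.7%, 13.6% and 6.95%. None of the 4 regions printed held the STAT6 letters. The median number of CG dinucleotides was 9 in the start regions of potassium channel genes and 7 in all start regions. These counts describe letters only. Kcng3, far above the median of 9, is 1 of 30 genes that fell and does not stand for them.

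In the 5 Sham mice the 84 genes spanned 3 orders of magnitude per length. The highest level was that of Kcnab2, a cytoplasmic beta subunit of the axonal Kcna channels, at 279 ± 27.7 TPM (SD, n = 5), above all others. Other abundant members were Kcnip2, a calcium-binding partner of the A-type Kcnd channels, at 139 ± 18.8 TPM, Kcnc1, a subunit of the fast-spiking current, at 122 ± 2.95 TPM, and Kcnj10 of astrocytes at 109.95 ± 10.4 TPM. Kcnip2 and Kcnc1 were within their spread of each other. Of all members, 79 were above 1 TPM, 54 above 10 TPM and 6 above 100 TPM, and the 10 highest held 40.8% of the summed TPM of the family. The genes found higher in IL-4 MSCs at 1 wpi than in Sham were near the bottom of this order: Kcne1l ranked 66 at 4.59 ± 1.13 TPM, Kcnk6 ranked 72 at 3.06 ± 0.945 TPM, Kcnn4 ranked 84 at 0.277 ± 0.115 TPM and Kcnj15 ranked 86 at 0.172 ± 0.150 TPM.

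**Figure D1:**
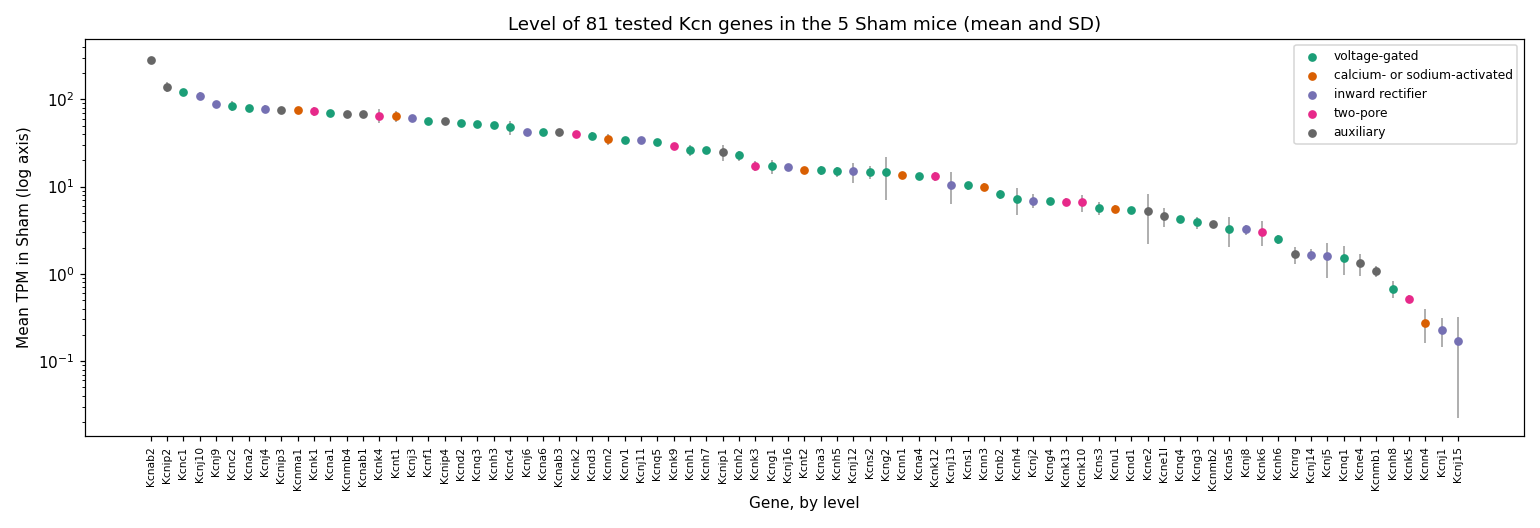
Mean level in Sham (TPM, log axis) of each of 81 tested potassium channel genes, ordered by level and colored by class, with the SD over 5 mice as bars. Kcnab2 stood highest at 279 TPM and Kcnj15 lowest at 0.172 TPM.

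The mean summed level of the family was slightly lower in each injured group than in Sham and lowest in IL-4 MSCs at 1 wpi. No test was run on this sum. The sum over the 94 genes was 3039 ± 92.3 TPM in Sham (SD, n = 5), 2878 ± 127 TPM in PBS, 2882 ± 33.4 TPM in MSCs and 2740 ± 84.6 TPM in IL-4 MSCs at 1 wpi. At 3 wpi it was 2901 ± 58.5 TPM in PBS (n = 4), 2956 ± 38.9 TPM in MSCs and 2984 ± 111 TPM in IL-4 MSCs. At 1 wpi every MSC mouse, at most 2932 TPM, and every IL-4 MSC mouse, at most 2879 TPM, was below every Sham mouse, at least 2949 TPM. The ranges of PBS at 1 wpi and of all groups at 3 wpi overlapped that of Sham. The 40 voltage-gated subunits accounted for much of the difference between IL-4 MSCs at 1 wpi and Sham, with 1324 ± 24.8 TPM in Sham and 1151 ± 48.1 TPM in IL-4 MSCs. The 15 inward rectifiers held 469 ± 24.6 TPM in Sham and 459 ± 15.5 TPM in IL-4 MSCs, a difference within the spread of the mice.

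At 1 wpi the largest set of changed potassium channel genes was found in IL-4 MSCs, and it was made up of many small decreases of neuronal subunits and a few large increases. Against Sham, 30 genes were lower and 4 higher. The 30 were 35.7% of the 84 tested, where 18.5% of all tested genes were lower, and the 4 were 4.76%, where 18.4% of all tested genes were higher. In PBS 12 genes (14.3%) were lower and 2 (2.38%) higher, against 5.03% lower and 8.73% higher among all tested genes. In MSCs 12 (14.3%) were lower and 3 (3.57%) higher, against 6.89% lower and 11% higher among all tested genes. The shares of all tested genes that were called were thus also largest in IL-4 MSCs. The members' median log2 fold change was −0.12 after PBS, −0.12 after MSCs and −0.17 after IL-4 MSCs, beside −0.01, −0.01 and −0.02 over all genes. Without any overlap between the mice, 1 member was above and 5 were below Sham after PBS (8.09% and 1.79% of all tested genes), 2 and 7 after MSCs (11.3% and 2.03%) and 3 and 8 after IL-4 MSCs (20.6% and 5.16%). The 3 comparisons share the Sham mice. The count in IL-4 MSCs was 21 without Sham replicate 3, that in MSCs 9 without Sham replicate 1, and that in PBS 9 without Sham replicate 1 and 7 without PBS replicate 2.

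**Figure D2:**
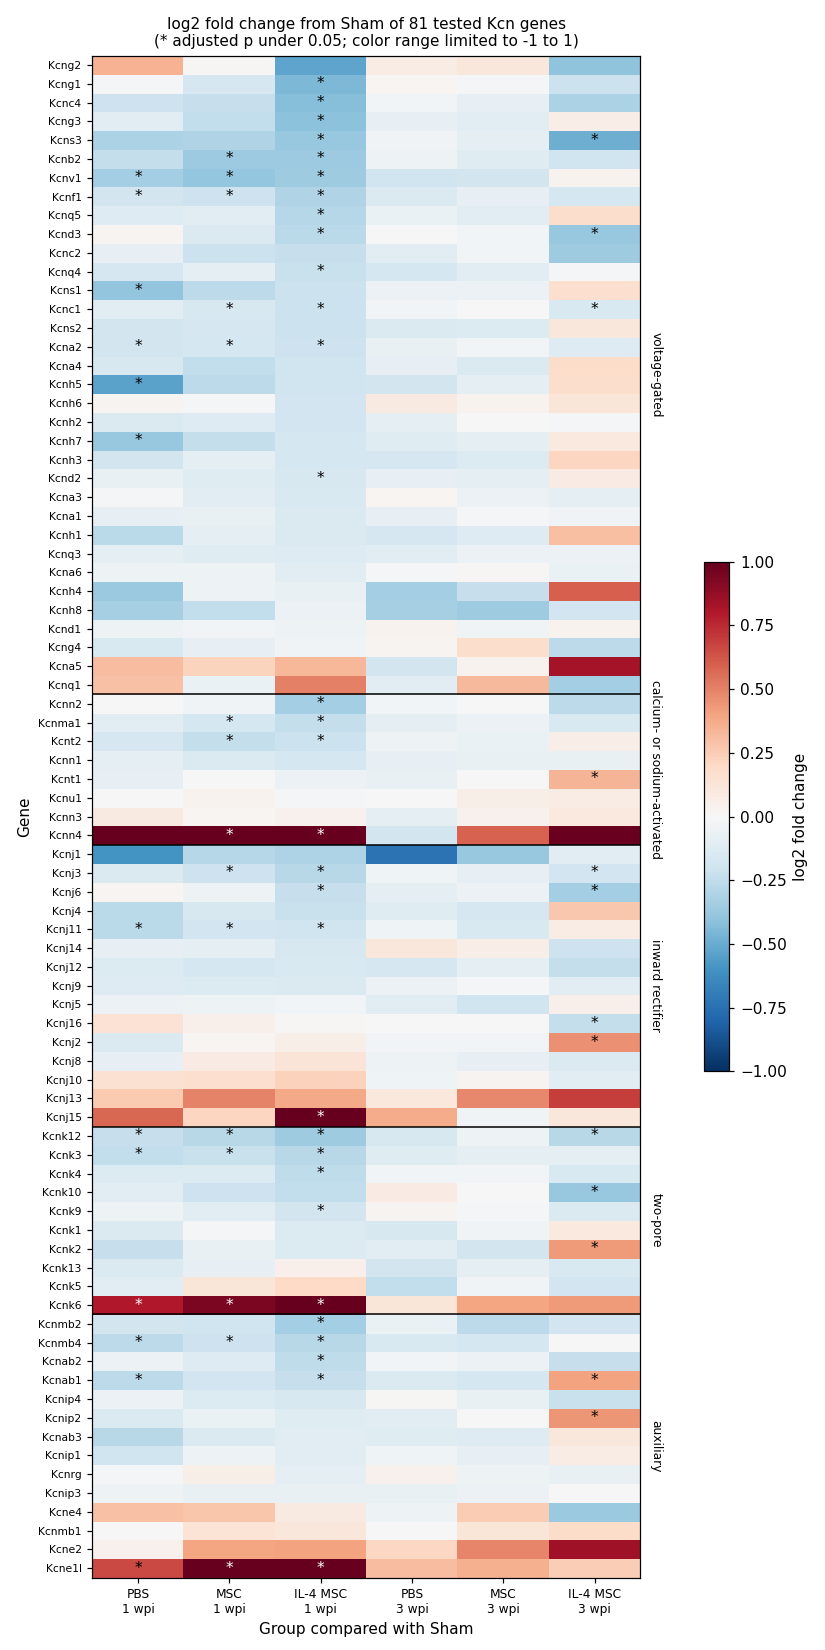
Heat map of the log2 fold change from Sham of 81 tested potassium channel genes, 1 line per gene ordered by class and by the change in IL-4 MSCs at 1 wpi, with color from blue (lower) to red (higher) limited at 1 and stars for genes with an adjusted p under 0.05. Most lines are pale blue at 1 wpi and 27 of 81 carry a star for a decrease in IL-4 MSCs, while no gene carries a star in PBS or MSCs at 3 wpi.

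The rise was largest in Kcnn4, the intermediate-conductance calcium-activated channel of leukocytes, microglia and erythrocytes (chr7:24370263-24386690). The Sham mice had 0.227, 0.184, 0.390, 0.120 and 0.275 CPM and the IL-4 MSC mice at 1 wpi 1.41, 1.5, 1.34, 0.993 and 1.36 CPM. PBS mice at 1 wpi had 0.190, 0.883, 0.640, 0.316 and 0.383 CPM and MSC mice 0.583, 0.433, 0.679, 0.612 and 0.376 CPM. All 5 IL-4 MSC mice were above all mice of the other 6 groups, whereas PBS and MSC mice overlapped Sham. The log2 fold change from Sham was 2.38 (edgeR adjusted p = 1.01e-06, SE 0.34) in IL-4 MSCs, 1.12 (adjusted p = 0.0298, SE 0.36) in MSCs and 1.00 (adjusted p = 0.0683, SE 0.37) in PBS. Against PBS at 1 wpi it was 1.39 (adjusted p = 0.00142, SE 0.31), and against MSCs 1.26 (adjusted p = 0.00486, SE 0.30). No other member separated IL-4 MSCs from MSCs in that week, where 8.69% of all tested genes were called, and leaving out single mice gave up to 3 calls: 3 without MSC replicate 3 and 2 without MSC replicate 1 or IL-4 MSC replicate 1 or 3. Its call in MSCs against Sham was lost without Sham replicate 1, 2 or 4 or MSC replicate 1, 3 or 4, and its level of at most 1.5 CPM makes it one of the least abundant members.

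Kcnk6, a two-pore channel through which macrophages lose potassium on activation (chr7:29221926-29232515), rose in all 3 injured groups. Sham mice had 5.95, 5.63, 4.45, 4.43 and 8.76 CPM, PBS mice 9.90, 10.7, 10.2, 10.8 and 10.5 CPM, MSC mice 9.64, 10.4, 14.1, 10.9 and 12.9 CPM and IL-4 MSC mice 11.9, 15.4, 14.8, 17.3 and 14.7 CPM. No injured mouse at 1 wpi overlapped Sham. The log2 fold change was 0.80 for PBS (edgeR adjusted p = 6.13e-05, SE 0.13), 0.94 for MSCs (adjusted p = 3.80e-06, SE 0.13) and 1.28 for IL-4 MSCs (adjusted p = 2.52e-09, SE 0.13). IL-4 MSCs were above PBS by 0.48 (adjusted p = 0.00885, SE 0.13), again without overlap.

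Kcne1l, also named Kcne5, is a single-span auxiliary subunit on chromosome X (chrX:142304752-142306294) that damps Kcnq1 channels. Sham mice had 2.47, 3.81, 2.65, 3.85 and 2.35 CPM, PBS mice 5.64, 6.21, 3.20, 5.56 and 4.01 CPM, MSC mice 5.78, 6.15, 6.11, 7.06 and 7.64 CPM and IL-4 MSC mice 8.34, 9.47, 9.05, 7.51 and 6.26 CPM. MSC and IL-4 MSC mice lay above all Sham mice, and 1 PBS mouse lay among them. The log2 fold changes were 0.66 (edgeR adjusted p = 0.00764, SE 0.17), 1.06 (adjusted p = 2.49e-05, SE 0.17) and 1.35 (adjusted p = 1.09e-07, SE 0.17), and IL-4 MSCs were above PBS by 0.69 (adjusted p = 0.00311, SE 0.16). The calls of Kcnn4, Kcnk6 and Kcne1l in IL-4 MSCs against Sham were kept in all 18 alternative settings.

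Kcnj15, an inward rectifier best known from kidney and other epithelia (chr16:95257558-95300260), was called in IL-4 MSCs only by a narrow margin. Sham mice had 0.245, 0.159, 0.322, 0.450 and 0.315 CPM and IL-4 MSC mice at 1 wpi 1.40, 0.414, 0.649, 0.591 and 0.637 CPM. The groups overlapped, and replicate 1 stood far above the other IL-4 MSC mice. The log2 fold change was 1.17 (edgeR adjusted p = 0.0335, SE 0.43). Without that mouse it was 0.82 (adjusted p = 0.162), and the call was also lost without Sham replicate 1, 2 or 5.

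**Figure D3:**
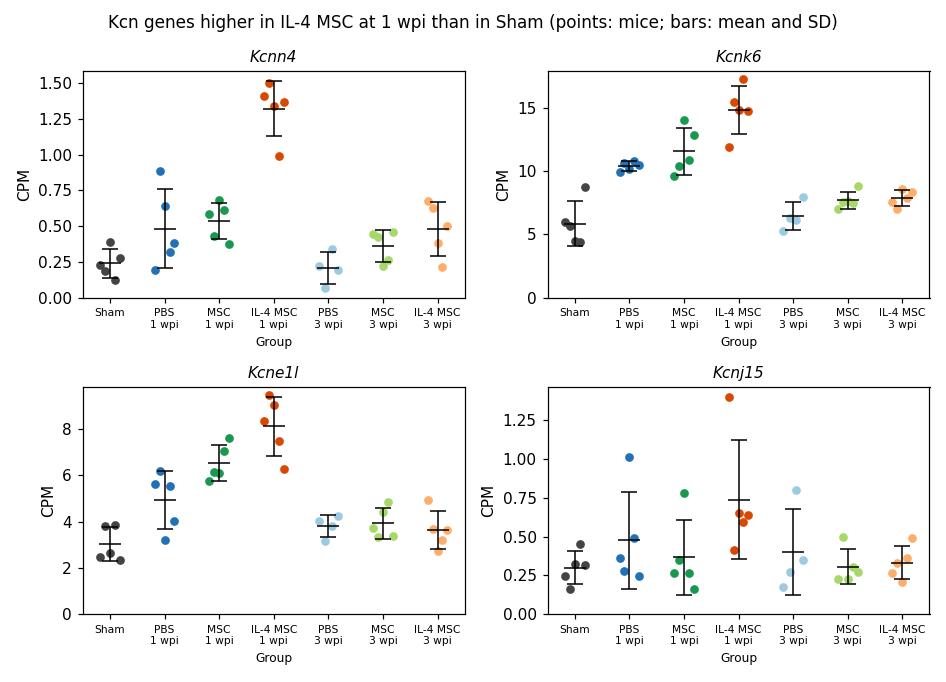
CPM of the 4 potassium channel genes that were higher in IL-4 MSCs at 1 wpi than in Sham, 1 point per mouse in the 7 groups, with the mean and SD as bars. Kcnn4 reached 0.993 to 1.5 CPM in IL-4 MSCs at 1 wpi, above all other mice, while 1 mouse at 1.40 CPM set the mean of Kcnj15.

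Kcnn4 and Kcnk6 rose along with markers of several cell types, among them microglia and macrophages. Of the 10 markers on the microglia and macrophage list 9 were higher in IL-4 MSCs at 1 wpi than in Sham, and 6 were higher than in PBS. The mean log2 CPM of the list was 3.47 to 4.03 in Sham, 4.49 to 4.86 in PBS, 4.63 to 4.89 in MSCs and 5.00 to 5.30 in IL-4 MSCs at 1 wpi. All 10 were detected, from Fcgr1 at 2.80 CPM to Csf1r at 88.6 CPM in Sham. The part of this list, or of the lists below, in the rise of Kcnn4 and Kcnk6 was not tested. Markers of endothelium and of fibroblasts and meninges also rose, 4 of 6 and 4 of 5 against Sham, and 4 of 7 T cell markers, with T cell scores of −1.03 to −0.78 in Sham and −0.20 to 0.22 in IL-4 MSCs. Of 4 neutrophil markers, Ly6g and Elane were near 0, at no more than 0.04 CPM on average in any group, and the score over S100a8 and S100a9 was −3.57 to 0.15 in Sham, −0.52 to 2.41 in PBS, −0.0009 to 2.65 in MSCs and −0.86 to 1.04 in IL-4 MSCs. Neither was called in IL-4 MSCs against Sham, and 1 was called higher in MSCs.

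The other glial, myeloid and vascular potassium channels did not pass the test at 1 wpi. Of 17 genes on this list 16 were tested, and Kcnn4 and Kcnk6 were the 2 called in IL-4 MSCs, where 18.4% of all tested genes were higher. The log2 fold changes of the other 14 ran from −0.16 to 0.40. Kcnj10, the main astrocyte channel, had 294, 318, 247, 263 and 290.0 CPM in Sham and 364, 419, 308, 317 and 335 CPM in IL-4 MSCs, a log2 difference of 0.23 (edgeR adjusted p = 0.0726, SE 0.10). The ranges overlapped. Its usual partner Kcnj16 differed by 0.01 (adjusted p = 0.930), Kcnk13 of microglia by 0.05 (adjusted p = 0.704) and Kcna3 of T cells and microglia by −0.16 (adjusted p = 0.105). Among vascular members, Kcnj8 of pericytes differed by 0.13 (adjusted p = 0.456) and Kcnmb1 of smooth muscle by 0.11 (adjusted p = 0.634), and among those of choroid plexus Kcnj13 differed by 0.38 (adjusted p = 0.480) and Kcne2 by 0.40 (adjusted p = 0.585). Over the same comparison 6 of 9 astrocyte markers were higher, with scores of 7.73 to 7.92 in Sham and 8.19 to 8.43 in IL-4 MSCs.

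The decreases in IL-4 MSCs at 1 wpi were small and were found in each of the 5 classes. The 30 genes fell to between 0.732 and 0.894 of the Sham level, with a median log2 fold change of −0.27. They were expressed at 3.69 to 279 TPM in Sham, with a median of 40.2 TPM, while the 50 genes not called had a median of 14 TPM. Of the 37 voltage-gated subunits 16 fell, as did 3 of 8 calcium- or sodium-activated channels, 3 of 15 inward rectifiers, 4 of 10 two-pore channels and 4 of 14 auxiliary subunits, where 18.5% of all tested genes fell. The inward rectifiers were near that share. Of the 37 voltage-gated subunits 35 had a fold change below 0. In 8 genes, among them Kcna2, Kcnb2, Kcnc4, Kcnf1, Kcnma1, Kcnmb4 and Kcnq5, no IL-4 MSC mouse overlapped Sham in CPM without the TMM factors.

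Pore-forming subunits of fast-spiking and delayed rectifier channels were among the voltage-gated genes that fell. Kcnc4, a fast-inactivating member of the family that supports rapid firing, had 67.2, 68.1, 86.3, 98.3 and 67.9 CPM in Sham and 61.2, 60.4, 62.5, 59.4 and 59.8 CPM in IL-4 MSCs. All treated mice were lower, and the Sham mice were widely spread. The log2 fold change was −0.43 (edgeR adjusted p = 0.00206, SE 0.11). Kcnc1 had a difference of −0.21 on the log2 scale (adjusted p = 2.05e-05, SE 0.04), with 300.2, 287, 269, 278 and 293 CPM in Sham and 249.6, 269, 250.2, 253 and 274 CPM in IL-4 MSCs. In these CPM, which leave out the TMM factors, only 1 IL-4 MSC mouse exceeded the lowest Sham mouse in Kcnc1. Kcnb2, a delayed rectifier, had 42, 43.5, 50.6, 48.2 and 41.4 CPM in Sham and 40.7, 33.8, 35.9, 36.0 and 38.2 CPM in IL-4 MSCs, without overlap, and a log2 fold change of −0.36 (adjusted p = 0.000624, SE 0.08).

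Silent subunits form no channel on their own but join Kcnb subunits and modify them. Of the 9 tested, 1 of 1 Kcnf, 2 of 4 Kcng, 1 of 3 Kcns and 1 of 1 Kcnv genes fell in IL-4 MSCs. Among all tested genes 18.5% fell. Kcng2, Kcng4, Kcns1 and Kcns2 had −0.53, −0.03, −0.22 and −0.21 and did not pass the test. Kcnv1 had 73.6, 69.5, 69.2, 65.4 and 73.3 CPM in Sham and 66.9, 53.7, 54.4, 54.0 and 58.8 CPM in IL-4 MSCs. In CPM without the TMM factors, only replicate 1 reached the Sham range. Its log2 fold change was −0.36 (edgeR adjusted p = 0.000604, SE 0.08), and it had −0.34 (adjusted p = 0.00335, SE 0.08) in PBS and −0.39 (adjusted p = 0.000683, SE 0.08) in MSCs. Kcnf1 was also called in all 3 groups, at −0.18 for PBS, −0.20 for MSCs and −0.30 for IL-4 MSCs. Kcng1 (−0.45 with SE 0.16, adjusted p = 0.0276), Kcng3 (−0.41 with SE 0.13, adjusted p = 0.0144) and Kcns3 (−0.38 with SE 0.13, adjusted p = 0.0230) were called in IL-4 MSCs, and their calls were lost in 7, 4 and 6 of 18 alternative settings. In each of the 3, leaving out Sham replicate 3 ended the call, and for Kcng3 leaving out IL-4 MSC replicate 2 or 3 did so too.

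Of the axonal Kcna subunits 1 of 6 fell in IL-4 MSCs, as did 3 of 5 Kcnq and 2 of 3 A-type Kcnd subunits. Among all tested genes 18.5% fell, and the Kcna subunits were near that share. Of the Kcnh genes 0 of 8 and of the Kcnip genes 0 of 4 were called lower. Kcna2, the axonal delayed rectifier, had 422, 428, 426, 427 and 434 CPM in Sham, 386, 355, 404, 384 and 404 CPM in PBS, 391, 403, 406, 376 and 381 CPM in MSCs and 387, 381, 385, 376 and 415 CPM in IL-4 MSCs. The Sham mice were tightly grouped and above all 15 injured mice at 1 wpi. The log2 fold changes were −0.18, −0.17 and −0.21, each with SE 0.04 (edgeR adjusted p = 0.00104, 0.00112 and 4.88e-05). Kcnq5 of the M current had −0.28 (adjusted p = 0.00259, SE 0.07) and Kcnd3 of the A-type current −0.27 (adjusted p = 0.00708, SE 0.08). Kcnh channels, related to the cardiac HERG channel, were called in PBS for Kcnh5 (−0.54 with SE 0.18, adjusted p = 0.0420) and Kcnh7 (−0.38 with SE 0.10, adjusted p = 0.00631), and had −0.20 (adjusted p = 0.42) and −0.18 (adjusted p = 0.157) in IL-4 MSCs. Whether the 2 groups differ in these genes is given by the comparison of IL-4 MSCs with PBS, in which neither was called. Exons of Kcnh7 overlap those of Gca on the opposite strand, and the PBS call of Kcnh5 was lost when Sham replicate 1, 2 or 5 or PBS replicate 2, 3 or 5 was left out.

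In the remaining classes, G protein-coupled and ATP-sensitive rectifiers, leak channels, large-conductance channels and beta subunits had called members. Kcnj3 and Kcnj6, subunits of the G protein-coupled rectifier, had log2 fold changes of −0.28 (edgeR adjusted p = 9.94e-05, SE 0.05) and −0.23 (adjusted p = 0.0295, SE 0.08). Kcnj11, the pore of the ATP-sensitive channel, had −0.20 (adjusted p = 0.0128, SE 0.06) and was also called in PBS and MSCs, at −0.27 and −0.19. Among two-pore leak channels, Kcnk12 had 10.2, 11.3, 10.8, 11.8 and 13.2 CPM in Sham and 8.41, 10.3, 9.02, 9.40 and 9.82 CPM in IL-4 MSCs, with a log2 fold change of −0.36 (adjusted p = 0.000385, SE 0.08). In CPM without the TMM factors, only the highest IL-4 MSC mouse reached the Sham range. The acid-sensitive leak channels Kcnk3 and Kcnk9 had −0.28 and −0.18. Kcnma1, the pore of the large-conductance calcium-activated channel, and its brain beta subunit Kcnmb4 fell together, at −0.24 (adjusted p = 0.00235, SE 0.06) and −0.28 (adjusted p = 0.00112, SE 0.07), both without overlap of the mice. Kcnmb2 had −0.34 (adjusted p = 0.0135, SE 0.11). The cytoplasmic beta subunits Kcnab1 and Kcnab2 had −0.23 and −0.25.

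**Figure D4:**
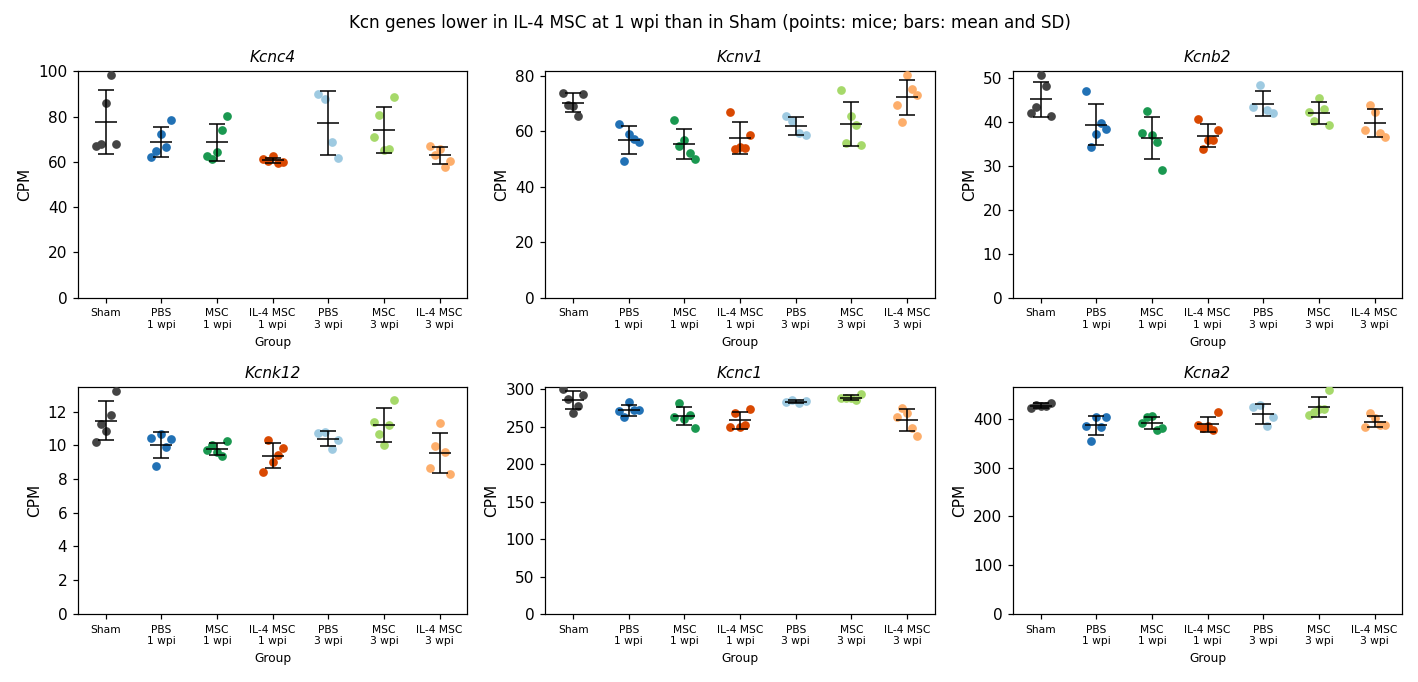
CPM of 6 potassium channel genes that were lower in IL-4 MSCs at 1 wpi than in Sham, 1 point per mouse in the 7 groups, with the mean and SD as bars and axes from 0. Kcna2 fell from 422 to 434 CPM in Sham to 376 to 415 CPM in IL-4 MSCs, and the decreases of all 6 genes were small beside their levels.

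These decreases moved with neuronal and cortical markers. Of 12 neuron markers 9 were lower in IL-4 MSCs at 1 wpi than in Sham, with a median log2 fold change of −0.25, and the list's mean log2 CPM was 8.96 to 9.06 in Sham, 8.73 to 8.88 in PBS, 8.79 to 8.84 in MSCs and 8.69 to 8.80 in IL-4 MSCs, without overlap. All 12 were detected, the lowest being Slc32a1 at 99.96 CPM in Sham. Cortex scores were 6.06 to 6.22 in Sham and, at 1 wpi, 5.43 to 5.96 in PBS, 5.82 to 6.02 in MSCs and 5.85 to 5.96 in IL-4 MSCs. With the neuron score as a covariate, an alternative chosen after the data were seen, 21 members were called in IL-4 MSCs against Sham, 10 higher and 11 lower. Since the score separated the 2 groups, its part and that of the group cannot be told apart in this fit. The other ion channel genes of neurons were measured as a comparison: 6 of 13 voltage-gated sodium channel genes, 11 of 25 calcium channel genes, 2 of 4 HCN channel genes and 10 of 18 partners of potassium channels, such as Dpp6 and Lgi1, were lower in IL-4 MSCs, and none was higher. Their median log2 fold changes were −0.16, −0.17, −0.17 and −0.21, beside −0.17 for the potassium channel genes.

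Between the treatments at 1 wpi few members differed. IL-4 MSCs had 3 genes above PBS, where 11.2% of all tested genes were higher, and 5 below, where 6.16% were lower. The mice did not overlap in 3 members above PBS and 4 below, beside 11.5% and 2.73% of all tested genes. The 3 were Kcnn4, Kcne1l and Kcnk6. Those below included Kcng2 (−0.87 with SE 0.27, edgeR adjusted p = 0.0218), Kcnd3 (−0.29 with SE 0.08, adjusted p = 0.00824), Kcnj6 (−0.25 with SE 0.08, adjusted p = 0.0369) and Kcnc1 (−0.11 with SE 0.04, adjusted p = 0.0380). Kcng2, a silent subunit, had 7.19, 8.91, 9.75, 8.21 and 9.78 CPM in PBS and 6.23, 3.93, 5.09, 3.88 and 5.43 CPM in IL-4 MSCs, without overlap, while Sham mice ranged from 4.64 to 9.61 CPM and did not differ from IL-4 MSCs by the test (adjusted p = 0.131). The count of 8 was 3 without PBS replicate 3, 4 without IL-4 MSC replicate 2 and 5 without IL-4 MSC replicate 3 or 4, and Kcnn4, Kcne1l and Kcnk6 were called in each case. Regional markers also differed between these mice. Striatum scores were 3.44 to 4.08 in PBS and 4.08 to 5.14 in IL-4 MSCs, and hippocampus scores 4.36 to 4.61 and 3.90 to 4.1, each without overlap though the striatum scores nearly touched, while 0 of 13 and 0 of 8 single markers were called. With the striatum score as a covariate 7 members were called, 3 higher and 4 lower. The score separated the groups, so its part and that of the group cannot be told apart in this fit. MSCs and PBS differed in 0 members by edgeR and by DESeq2, with 2 at an unadjusted p under 0.05, where 0.123% of all tested genes were called.

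At 3 wpi neither PBS nor MSCs had a changed member against Sham. edgeR and DESeq2 both called 0, with 7 and 6 members at an unadjusted edgeR p under 0.05, and 0.0292% and 1.15% of all tested genes were called. Of the risers of the first week, Kcnk6 had 5.29, 6.34, 6.16 and 7.98 CPM in PBS and 7.05, 7.56, 7.62, 7.5 and 8.84 CPM in MSCs, overlapping Sham. From 1 to 3 wpi it fell by 0.68 (adjusted p = 0.00218, SE 0.14) in PBS and by 0.55 (adjusted p = 0.00755, SE 0.13) in MSCs on the log2 scale. Kcne1l fell by 0.71 (adjusted p = 0.00722, SE 0.17) in MSCs, and its difference of −0.35 in PBS did not pass the test (adjusted p = 0.334). Nor did the differences of Kcnn4 over time, −0.53 in MSCs (adjusted p = 0.463) and −1.18 in PBS (adjusted p = 0.0833). At 3 wpi Kcnn4 differed from Sham by 0.59 in MSCs (SE 0.38, adjusted p = 0.615), the highest value of any member there, and by −0.19 in PBS (SE 0.44, adjusted p = 0.999). In PBS 1 member rose over this time and 1 fell, and in MSCs 2 rose and 2 fell, where 5.51% and 6.15% of all tested genes were called. In PBS this count was 1 without PBS replicate 2 or 3 at 1 wpi or replicate 2 at 3 wpi, and 5 without replicate 3 at 3 wpi. MSCs and PBS at 3 wpi differed in 0 members by both tools, with 0 at an unadjusted p under 0.05, and 0.0817% of all tested genes were called.

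The largest number of members that changed from 1 to 3 wpi was found in IL-4 MSCs: 25 members were higher and 6 lower at 3 wpi than at 1 wpi, where 16.4% of all tested genes were higher and 16.6% lower. The 6 that fell were Kcnn4 (−1.40 with SE 0.31, edgeR adjusted p = 0.000596), Kcne1l (−1.10 with SE 0.17, adjusted p = 4.15e-06), Kcnk6 (−0.85 with SE 0.13, adjusted p = 4.46e-06), Kcnq1 (−0.84 with SE 0.25, adjusted p = 0.00803), Kcnj10 (−0.34 with SE 0.10, adjusted p = 0.0103) and Kcnj16 (−0.25 with SE 0.07, adjusted p = 0.00545). Kcnn4 had 0.672, 0.628, 0.383, 0.215 and 0.498 CPM at 3 wpi, below every IL-4 MSC mouse at 1 wpi, and its difference from Sham was 0.98 (adjusted p = 0.122, SE 0.37). The members that rose included both Kcnt genes and 5 of 8 Kcnh genes, although none of the Kcnh genes had been called lower than Sham at 1 wpi. The largest log2 fold changes of the members that rose were those of Kcnh4 (0.68 with SE 0.23, adjusted p = 0.0255) and Kcnab1 (0.63 with SE 0.08, adjusted p = 4.30e-07). Markers moved with these members: 8 of 12 neuron markers and 10 of 13 striatum markers were higher at 3 wpi, with neuron scores of 8.69 to 8.80 at 1 wpi and 8.83 to 9.11 at 3 wpi, and striatum scores of 4.08 to 5.14 at 1 wpi and 5.96 to 6.74 in 4 of 5 mice at 3 wpi. With the neuron score as a covariate the count was 2 in place of 31, and with the striatum score it was 33. The neuron score separated the weeks, so its part and that of the week cannot be told apart. The striatum score also set 4 of 5 mice at 3 wpi above all mice at 1 wpi.

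At 3 wpi IL-4 MSCs differed from Sham in 13 members, 5 higher and 8 lower, where 2.76% of all tested genes were higher and 1.52% lower. Without overlap, 1 member, Kcna4, was above Sham and 4, Kcna2, Kcnc4, Kcnf1 and Kcns3, below it, beside 2.4% and 0.887% of all tested genes. The higher ones were Kcnj2 (0.46 with SE 0.13, edgeR adjusted p = 0.0430), Kcnip2 (0.44 with SE 0.11, adjusted p = 0.0242), Kcnk2 (0.42 with SE 0.11, adjusted p = 0.0250), Kcnab1 (0.40 with SE 0.08, adjusted p = 0.00591) and Kcnt1 (0.34 with SE 0.10, adjusted p = 0.0395). The lower ones were Kcns3 (−0.49), Kcnd3 (−0.38), Kcnk10 (−0.38), Kcnj6 (−0.34), Kcnk12 (−0.27), Kcnj16 (−0.24), Kcnj3 (−0.19) and Kcnc1 (−0.15). Against PBS at 3 wpi 7 members were higher and 2 lower, where 2.17% and 0.776% of all tested genes were, and against MSCs 11 were higher and 3 lower, where 2.29% and 1.18% were. Both lists of higher genes held Kcnh4, Kcnip2, Kcnab1, Kcnk2, Kcnh1 and Kcnt1, and both lists of lower genes held Kcnk10 and Kcnd3. The comparisons share the IL-4 MSC mice.

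In Kcnab1, Kcnip2 and Kcnk2, 4 of the 5 IL-4 MSC mice at 3 wpi carried these differences. Kcnab1, a beta subunit that confers inactivation on Kcna channels, had 103, 106, 92.6, 90.8 and 108 CPM in Sham and 123, 101, 131, 166 and 144 CPM in IL-4 MSCs at 3 wpi. Kcnip2 had 96.6, 91.3, 96.1, 81.2 and 105 CPM in Sham and 119, 81.9, 131, 177 and 133 CPM in IL-4 MSCs. Kcnk2, a mechanosensitive two-pore channel, had 54.6, 53.5, 47.4, 51.1 and 56.4 CPM in Sham and 73.6, 43.6, 76.1, 84.9 and 76.5 CPM in IL-4 MSCs. In all 3 genes replicate 2 was the lowest IL-4 MSC mouse and lay within or below the Sham range, and the other 4 were above all Sham mice. Kcnh4 had 14.8, 15, 8.02, 8.83 and 18.4 CPM in Sham and 16.6, 9.48, 20.5, 27.7 and 24.3 CPM in IL-4 MSCs, and Kcnd3 had 118, 114, 134, 135 and 112 CPM in Sham and 97.9, 117, 84.7, 88.1 and 87.7 CPM in IL-4 MSCs. In Kcnd3 replicate 2 was the only IL-4 MSC mouse within the Sham range, and in Kcnh4 replicates 1 and 2 both were.

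These members moved with markers of striatum. Of 13 striatum markers 10 were higher in IL-4 MSCs at 3 wpi than in Sham and 12 higher than in PBS, and all 13 were detected, from Ido1 at 0.91 CPM to Pde10a at 166 CPM in Sham. The list's mean log2 CPM was 6.04, 3.90, 5.96, 6.74 and 6.26 in the 5 IL-4 MSC mice, so that replicate 2, low in Kcnab1, Kcnip2, Kcnk2 and Kcnh4, was also low in striatum markers. It was 2.98 and 2.98 in the 2 Sham mice collected at 1 week and 4.92, 5.07 and 5.18 in the 3 collected at 3 weeks. Mice of PBS and MSCs at 3 wpi had 3.15 to 4.50 and 3.21 to 4.96. Hippocampus and thalamus scores were 2.33 to 3.67 and 3.86 to 4.98 in the 4 high IL-4 MSC mice, and 4.59 and 6.17 in replicate 2. With the striatum score as a covariate edgeR called 0 members between IL-4 MSCs and Sham, PBS or MSCs at 3 wpi, with 22, 12 and 20 at an unadjusted p under 0.05. The score set 4 of the 5 IL-4 MSC mice above all mice of those groups. Its part and that of the group can therefore hardly be told apart in this fit. With only the 2 groups in the fit edgeR also called 0, with 30, 35 and 38 at an unadjusted p under 0.05. DESeq2 called 17, 18 and 19. When Sham was limited to mice collected in the matching week, 1 member was called against it.

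**Figure D5:**
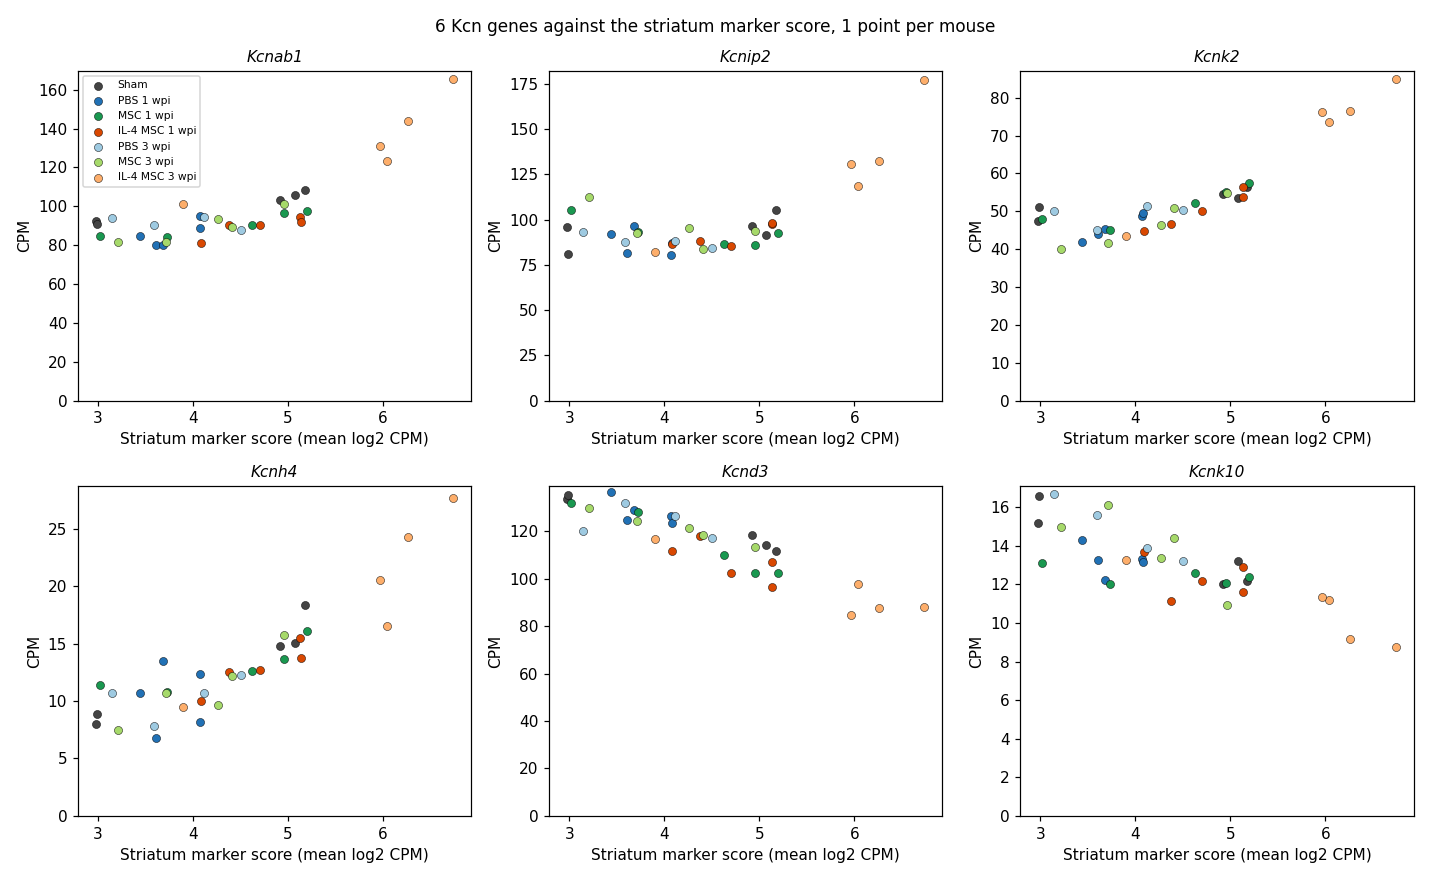
CPM of 6 potassium channel genes (vertical axes, from 0) against the mean log2 CPM of 13 striatum markers (horizontal axes), 1 point per mouse, colored by group. The 4 IL-4 MSC mice at 3 wpi with scores of 5.96 to 6.74 lie at the right, with the highest values of Kcnab1, Kcnip2 and Kcnk2 and low values of Kcnd3 and Kcnk10, while the fifth mouse at 3.90 lies among the other groups.

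The counts at 3 wpi rested on single mice. Against Sham, leaving out IL-4 MSC replicate 2 gave 26 calls, and leaving out IL-4 MSC replicate 1, 4 or 5 gave 5, 3 and 2, while leaving out Sham replicate 3 or 4, the 2 Sham mice collected at 1 week, gave 3 and 4. Against PBS the 9 calls became 26 without IL-4 MSC replicate 2, 1 without PBS replicate 1, and 2 and 5 without IL-4 MSC replicate 4 and 5. Against MSCs the 14 calls became 24 without IL-4 MSC replicate 2, 8, 2 and 4 without IL-4 MSC replicate 3, 4 and 5, and 6, 8 and 6 without MSC replicate 2, 3 and 5. Kcnab1 and Kcnd3 kept their calls against Sham in each of these omissions.

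The difference between treatments changed with the week in a few members. For IL-4 MSCs against PBS the difference at 1 wpi was below that at 3 wpi in 2 members, Kcnab1 (−0.51 with SE 0.12, edgeR adjusted p = 0.0102) and Kcnq5 (−0.40 with SE 0.11, adjusted p = 0.0249), where 0.788% of all tested genes were called in this direction and 3.93% in the other. For IL-4 MSCs against MSCs 5 members were called in this direction, Kcnk2 (−0.67), Kcnab1 (−0.62), Kcnj4 (−0.50), Kcnh1 (−0.48) and Kcnq5 (−0.44), and Kcnq1 in the other (1.23 with SE 0.35, adjusted p = 0.0233), where 1.9% and 5.96% of all tested genes were. Kcnq1, a delayed rectifier of epithelia and heart, had 1.51, 1.02, 0.524, 0.993 and 1.39 CPM in IL-4 MSCs and 0.750, 0.649, 1.03, 0.709 and 0.438 CPM in MSCs at 1 wpi, and 0.532, 0.848, 0.671, 0.322 and 0.550 CPM in IL-4 MSCs at 3 wpi. The groups overlapped at this low level. With the neuron score as a covariate edgeR called 0 members in both tests, with 7 and 5 at an unadjusted p under 0.05, and with the striatum score 4 and 3. The first count was 7 without IL-4 MSC replicate 2 at 3 wpi and 1 without any of 7 other mice, and the second was 16 without that mouse and 3 without IL-4 MSC replicate 1 at 1 wpi or replicate 4 at 3 wpi.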

How the data were processed

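RNA of 35 mouse brain samples was sequenced with paired ends of 50 bases, and the 34 in the table were analysed. The authors removed adaptors with cutadapt 2.4 and pseudoaligned the reads to the protein-coding part of GENCODE M23 with kallisto 0.46, followed by sleuth 0.30 in R 3.6.1. The deposited table holds estimated counts and TPM per gene. It also holds the authors' own fold changes, p-values and q-values, which were not used. Estimated counts were rounded. Genes were filtered with filterByExpr, normalized with TMM and tested with edgeR 4.0.16 (glmQLFTest, R 4.3.3) in 1 fit of all 7 groups without covariates, and SEs were derived from the test statistic. The test was checked on simulated data. Gene positions are GRCm38, from GENCODE M21, and promoters are RefSeq's. Marker scores are the average over a list of log2 CPM, computed with prior count 2. Mice are separate animals.

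Genes were named by this rule: up to 12 called members in each direction by fold change in IL-4 MSCs at 1 wpi against Sham, up to 6 in each direction in the other comparisons, the glial, myeloid and vascular list, and the highest TPM of each class. Other called genes were named after their values were seen, and some genes that the rule names are not reported here. Members and lists were chosen with earlier results of these data known. Alternatives were no filter, RLE scaling, DESeq2 1.42.0, a replicate block, a striatum covariate, Sham of the same week, 2-group fits and leaving out each mouse, plus a neuron covariate added later. Exons of Kcnh3 overlap Mcrs1, those of Kcnh7 Gca, of Kcnip4 5730480H06Rik, of Kcnj13 Gigyf2 and of Kcnk4 Catsperz, so reads may be divided between both genes.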

Additional observations from a re-analysis of the deposited data

Results flagged for a closer look

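Of 343 sets of mice looked at, 49 genes in 7 groups, 21 had a single mouse far from the rest of its group, and chance alone gives about 1 in 20.

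In IL-4 MSCs at 3 wpi, replicate 2 had 26.0 CPM of Kcnh5, where the others had 33.2 to 35.0 CPM, 50.5 CPM of Kcnj6, where the others had 37.5 to 40.8 CPM, and 43.6 CPM of Kcnk2, where the others had 73.6 to 84.9 CPM. It is the mouse with the low striatum score. In the same group replicate 3 had 30.5 CPM of Kcnk3 and replicate 4 had 2.55 CPM of Kcnmb2. In PBS at 1 wpi, replicate 2 had 62.5 CPM of Kcnh1 and 53.0 CPM of Kcnj4, each below all others, and replicate 1 had 20.8 CPM of Kcnj2. In PBS at 3 wpi, replicate 2 had 14.4 CPM of Kcna3 and 45.2 CPM of Kcnj11, above the others.

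In IL-4 MSCs at 1 wpi, replicate 1 had 1.40 CPM of Kcnj15, replicate 3 had 2.09 CPM of Kcnmb1, replicate 4 had 12.7 CPM of Kcnj13, where the others had at most 6.81 CPM, and replicate 5 had 415 CPM of Kcna2. In MSCs at 1 wpi, replicate 5 had 6.79 CPM of Kcns3. In MSCs at 3 wpi, replicate 5 had 460.1 CPM of Kcna2 and 218 CPM of Kcnj10, where the others had at least 293 CPM of Kcnj10, replicate 1 had 26.3 CPM of Kcnj16, and replicate 2 had 0.499 CPM of Kcnj15, 0.730 CPM of Kcnk5 and 102 CPM of Kcnq5.

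The difference between IL-4 MSCs and the other treatments changed with the week in 8 tests of that change, none of which was called with the neuron score as a covariate, and 4 of the 5 IL-4 MSC mice at 3 wpi stood apart in striatum score (5.96 to 6.74). Against PBS, the log2 difference at 1 wpi minus that at 3 wpi was −0.51 for Kcnab1 and −0.40 for Kcnq5. Against MSCs it was −0.62 for Kcnab1, −0.48 for Kcnh1, −0.50 for Kcnj4, −0.67 for Kcnk2, 1.23 for Kcnq1 and −0.44 for Kcnq5.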

How the results depend on the processing

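Depth limits the genes under 1 CPM, such as Kcnn4, Kcnj15 and Kcnq1, and groups of 4 or 5 mice limit the rest. Data were simulated for IL-4 MSCs at 1 wpi against Sham, with genes drawn independently of each other. There 65 of 100 genes changed by 0.5 on the log2 scale and 90 of 100 changed by 1 were recovered. No change as small as the median decrease of −0.27 was simulated, so the recovery of such changes is not known. Counts below are of members called. No filter on low counts and RLE scaling moved none of the counts by over 1.5 times, and of 102 pairs of a named gene and a comparison, 102 and 100 kept their side of the threshold. DESeq2 kept 100 and gave 18 for IL-4 MSCs against PBS at 3 wpi and 4 for the change of that difference between weeks. The causes of the differences given here were not tested.

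With the striatum covariate the count was 24 for MSCs against Sham at 1 wpi, 2 for IL-4 MSCs against MSCs at 1 wpi, 0 for IL-4 MSCs at 3 wpi against Sham, PBS and MSCs, and 4 and 3 for the change between weeks against PBS and MSCs. Kcnj2 turned to −0.026 in IL-4 MSCs at 1 wpi. The striatum score set most IL-4 MSC mice at 3 wpi apart from the other groups. Its part and that of the group can therefore hardly be told apart there. With only 2 groups in the fit the count was 0 for IL-4 MSCs at 3 wpi against Sham, PBS and MSCs, and 1 for PBS at 3 against 1 wpi. With Sham of the same week it was 7 for PBS at 1 wpi and 1 for IL-4 MSCs at 3 wpi, and Kcnk1 and Kcnj16 turned to 0.059 and −0.055 in IL-4 MSCs at 1 wpi.

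With the neuron covariate, chosen after seeing the data, the count was 2 for PBS and 21 for IL-4 MSCs at 1 wpi against Sham, 1 and 0 for IL-4 MSCs at 3 wpi against PBS and MSCs, 1 and 2 for 3 against 1 wpi in PBS and IL-4 MSCs, and 0 and 0 for the change between weeks, with 7 and 5 at an unadjusted p under 0.05. Signs turned for Kcns1 in PBS (0.023), for Kcnmb1 (−0.11), Kcnk1 (0.12), Kcnk2 (0.37), Kcne2 (−0.11), Kcnj10 (−0.067), Kcne4 (−0.51), Kcnj16 (−0.18) and Kcnj13 (−0.0086) in IL-4 MSCs at 1 wpi, and for Kcnh4 (−0.43), Kcnk2 (−0.010), Kcnip2 (−0.033) and Kcnj4 (−0.048) from 1 to 3 wpi in IL-4 MSCs.

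Leaving out each mouse in turn gave 7 to 16 calls for PBS, 9 to 15 for MSCs and 21 to 33 for IL-4 MSCs at 1 wpi against Sham, and 0 to 0, 0 to 1 and 2 to 26 at 3 wpi. The call in MSCs at 3 wpi came without Sham replicate 5. At 1 wpi it gave 3 to 8 for IL-4 MSCs against PBS, 1 to 3 against MSCs and 0 to 0 for MSCs against PBS, and at 3 wpi 1 to 26, 2 to 24 and 0 to 0. From 1 to 3 wpi it gave 1 to 5 for PBS, 3 to 5 for MSCs and 24 to 35 for IL-4 MSCs, and for the change between weeks 1 to 7 and 3 to 16. In IL-4 MSCs at 1 wpi Kcnj2 ran from −0.0032 to 0.17, Kcne4 from −0.011 to 0.27 and Kcnj16 from −0.0095 to 0.049.

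No pairing of mice by replicate number was found by the rule used: in 0 of 21 pairs of groups were all same-numbered correlations over 0.1 (range −0.46 to 0.40), and 5 of 34 libraries correlated best with their own number. The rule is strict and cannot exclude a weaker pairing. Mean same-numbered correlations ran from −0.32 (Sham and PBS at 3 wpi, other numbers 0.08) to 0.17 (PBS and MSCs at 1 wpi, other numbers −0.04). With the replicate number as a block the counts were 15, 16 and 37 against Sham at 1 wpi, 0, 0 and 13 at 3 wpi, 9, 1 and 0 between treatments at 1 wpi, 9, 13 and 0 at 3 wpi, 2, 4 and 30 over time and 2 and 6 for the change between weeks.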
